A study of Homo sapiens with 18 samples.

Results

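The genes described here are 8 of the neighbours of MET on chromosome 7q31, FOXP2, MDFIC, TES, CAV2, CAV1, CAPZA2, ST7 and LSM8. They were chosen by name and place, not by their values, but with earlier results of these data known. All 8 of the 8 have a row among the 19901 genes of the count table and passed the filter on low counts. The libraries were made from mRNA of 3 established head-and-neck squamous cell carcinoma lines, Detroit 562 (from a metastasis of a pharyngeal tumor), FaDu (from a hypopharyngeal tumor) and SCC-9 (from a tongue tumor). Each line was left untreated (control) or received 50 ng/mL hepatocyte growth factor (HGF), with 3 libraries per group and 18 in all. The sample records give 16 h of HGF and the record of the series gives 48 h. Each line is 1 established line, so a difference between lines is a difference between these 3 lines and not between kinds of tumor. The study grew SCC-9 in another medium than Detroit 562 and FaDu, with hydrocortisone in it. A difference from SCC-9 therefore cannot be told apart from one of culture medium. Per the study's methods the experiment was repeated, so the p-values measure the spread between repeats within 1 line.

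MET is the receptor tyrosine kinase that binds HGF and drives growth and motility of epithelial cells. Its level in a tumor cell can be set at the gene itself or be shared with a longer stretch of the chromosome. Genes that lie beside it allow these to be compared. The neighbours encode proteins of different kinds. Whether any of them acts on MET or in HGF signaling was not tested. CAV1 and CAV2 encode caveolins, which coat the small pits of the plasma membrane called caveolae. TES encodes testin, a LIM domain protein of focal adhesions, and CAPZA2 encodes an alpha subunit of the capping protein that closes the fast-growing end of actin filaments. LSM8 encodes a subunit of the LSM ring that binds U6 small nuclear RNA in the nucleus, FOXP2 a forkhead transcription factor known from speech and brain development, and MDFIC an inhibitor of certain transcription factors. ST7 was described as a candidate tumor suppressor on 7q31.

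All 9 genes lie on the plus strand. In the coordinates of the count table (GRCh38), MET occupies chr7:116672390-116798386. Before it come FOXP2 at chr7:114086327-114693772, MDFIC at chr7:114922154-115019202, TES at chr7:116210493-116258783, CAV2 at chr7:116287380-116508541 and CAV1 at chr7:116524785-116561184. After it come CAPZA2 at chr7:116811070-116922049, ST7 at chr7:116953238-117230103 and LSM8 at chr7:118184032-118192824. CAPZA2 begins 12.7 kb after the end of MET and CAV1 ends 111.2 kb before its start, while FOXP2 ends 1978.6 kb before it. Reads were counted over the whole extent of a gene, introns included. None of the 9 extents overlaps another gene of the table on the same strand. In the GENCODE 44 annotation 12 genes overlap ST7 on its strand, 1 of them protein-coding, 2 overlap FOXP2 and 1 overlaps CAV2, so reads from these were counted for the neighbour.

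The sequence just before the start of MET, TES and CAPZA2 is shown because TES followed MET across the lines and CAPZA2, the nearest gene, did not follow it in FaDu. Each stretch is the 250 bases before the RefSeq start (GRCh38.p14), plus strand, with matches to GGGCGG or its reverse complement CCGCCC, the core of the GC box bound by the SP family, in capitals.
MET, chr7:116671946-116672195: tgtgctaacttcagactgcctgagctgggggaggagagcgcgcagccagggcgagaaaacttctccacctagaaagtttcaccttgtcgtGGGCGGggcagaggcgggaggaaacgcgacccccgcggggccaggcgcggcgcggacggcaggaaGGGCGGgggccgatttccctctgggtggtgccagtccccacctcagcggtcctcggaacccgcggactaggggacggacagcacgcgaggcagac
TES, chr7:116210289-116210538: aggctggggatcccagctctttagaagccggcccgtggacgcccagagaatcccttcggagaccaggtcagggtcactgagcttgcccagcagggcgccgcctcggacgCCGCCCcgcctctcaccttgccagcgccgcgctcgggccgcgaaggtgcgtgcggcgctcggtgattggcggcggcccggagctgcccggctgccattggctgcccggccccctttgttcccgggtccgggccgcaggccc
CAPZA2, chr7:116862337-116862586: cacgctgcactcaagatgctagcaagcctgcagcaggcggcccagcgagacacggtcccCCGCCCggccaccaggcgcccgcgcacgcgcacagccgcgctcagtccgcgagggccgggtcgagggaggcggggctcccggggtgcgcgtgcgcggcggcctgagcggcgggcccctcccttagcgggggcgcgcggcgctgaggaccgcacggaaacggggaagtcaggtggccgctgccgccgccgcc
The stretch of MET holds 2 matches, and those of TES and CAPZA2 hold 1 each. A match was present in 42.6% of 35116 RefSeq promoter stretches of this length. The GC content was 68.4% for MET, 73.6% for TES and 78.4% for CAPZA2, against a median of 58% over all stretches. The motif TGANTCA of AP-1 factors, which reads the same on both strands, was found in none of the 3 stretches and in 6.57% of all. The RefSeq start of CAPZA2 lies 51.5 kb inside the extent that the table gives the gene.

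Total counts ranged from 35304770 to 44003970 per library, and 15475 genes were tested. Of the 10 squamous epithelial markers, all 10 were tested, and 7 were lower and 2 higher in untreated Detroit 562 than in FaDu. KRT14, a basal keratin, lay between 40.6 and 56.6 normalized counts in untreated Detroit 562 and between 12756 and 20453 in FaDu, while the epithelial adhesion gene EPCAM lay between 16671 and 17354 in Detroit 562 and between 5285 and 6428 in FaDu. Of the 3 leukocyte markers, PTPRC did not exceed 3.24 and CD3E 3.83 normalized counts in any library, but CD14 lay between 167 and 241 in untreated FaDu and between 321 and 393 in SCC-9, against 0.945 to 3.27 in Detroit 562. Of the 6 fibroblast markers, LUM did not exceed 2.18, COL3A1 9.53 and PDGFRB 9.59 in any library. COL1A2 lay between 509 and 1319 in untreated Detroit 562, between 415 and 446 in SCC-9 and between 0 and 1.01 in FaDu. COL1A1 had another order, at 685 to 853 in Detroit 562, 159 to 268 in FaDu and 2624 to 3474 in SCC-9, and DCN lay between 59.3 and 69.6 in SCC-9 and at no more than 1.01 in the untreated libraries of the other lines. The part of these marker differences in the results was not tested.

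To see whether the high MET of Detroit 562 is particular to the gene or shared by its surroundings, untreated levels were compared across the lines. MET itself stood at 31045, 30833 and 33553 normalized counts in the 3 untreated Detroit 562 libraries, at 5794, 5571 and 6459 in FaDu and at 12407, 11296 and 11088 in SCC-9. The lines did not overlap, with Detroit 562 highest and FaDu lowest. MET was 5.35-fold higher in Detroit 562 than in FaDu (log2 fold change 2.42 ± 0.11 SE, adjusted p = 5.57e-12 by edgeR's quasi-likelihood test) and 2.74-fold higher than in SCC-9 (1.46 ± 0.11, adjusted p = 1.64e-09).

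**Figure D1:**
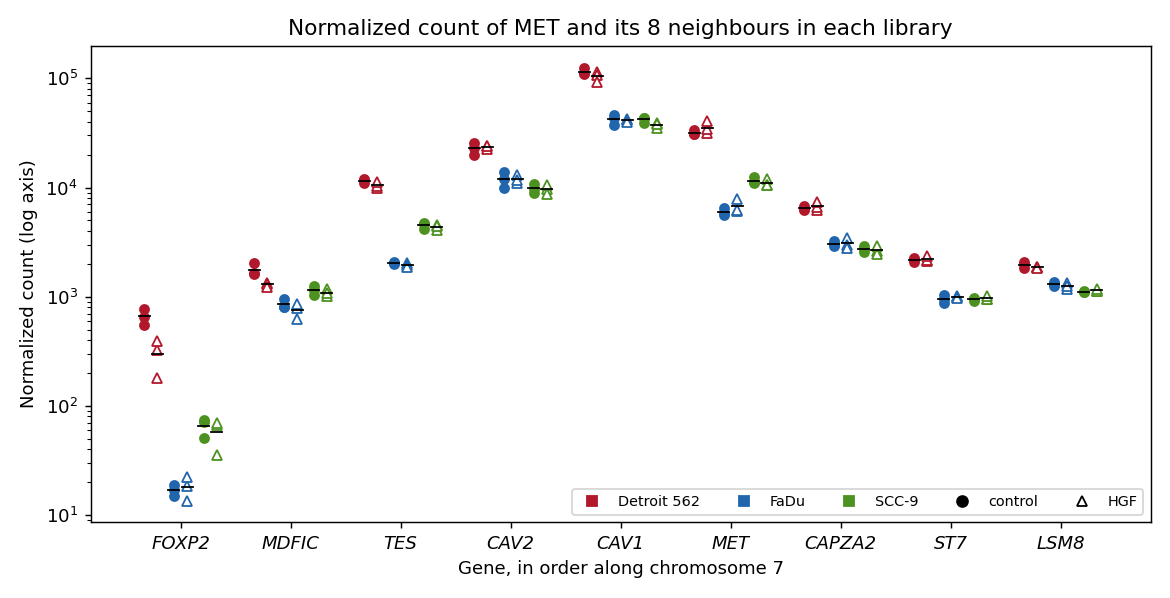
Normalized count (log axis) of MET and its 8 neighbours, in chromosomal order, in each of the 18 libraries. Filled circles are control and open triangles HGF-treated libraries, colors mark the lines and short bars the group means; the control libraries of Detroit 562 lie above those of both other lines for every gene.

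All 8 neighbours were called higher in untreated Detroit 562 than in FaDu and all 8 higher than in SCC-9, where a call needed an adjusted p below 0.1 together with a log2 difference of 0.4 or more. Of all genes tested, 31.2% were called higher in the first comparison and 31.4% in the second. For each of the 8 the Detroit 562 control libraries lay above all control libraries of the other lines, where 36.9% and 39.1% of all genes did so against FaDu and SCC-9. The median log2 difference of the 8 was 1.14 against FaDu and 1.22 against SCC-9, beside medians of -0.01 and -0.03 over all genes. Both comparisons use the same Detroit 562 libraries. The 8 are not every gene near MET. Within 1 Mb of it, 6 genes other than MET were tested, and TES, CAV2, CAV1, CAPZA2 and ST7 are among these 6. All 6 were called higher than in FaDu. Against SCC-9, the 5 neighbours just named were called higher. The 1 gene outside the 8 was called lower, at a log2 difference of -2.29.

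Of the membrane and adhesion genes, TES came closest to MET. It stood at 11669, 11077 and 11880 normalized counts in untreated Detroit 562, at 2068, 1981 and 2028 in FaDu and at 4654, 4177 and 4772 in SCC-9. The order of the lines was that of MET, with no overlap. TES was 5.70-fold higher in Detroit 562 than in FaDu (log2 fold change 2.51 ± 0.07, adjusted p = 2.55e-14, edgeR) and 2.55-fold higher than in SCC-9 (1.35 ± 0.07, adjusted p = 1.45e-11).

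The caveolin genes were higher in Detroit 562 but did not separate the other lines. CAV1, the most abundant of the 8 also per kb of exon, stood at 125639, 112006 and 109037 in untreated Detroit 562, at 43104, 37682 and 46474 in FaDu and at 43679, 38732 and 43686 in SCC-9. FaDu and SCC-9 overlapped. CAV1 was 2.72-fold higher in Detroit 562 than in FaDu (log2 fold change 1.45 ± 0.09, adjusted p = 3.25e-10, edgeR) and 2.75-fold higher than in SCC-9 (1.46 ± 0.09, adjusted p = 2.29e-10). CAV2 stood at 22885, 20066 and 25541 in Detroit 562, at 11986, 9983 and 13937 in FaDu and at 9773, 8943 and 10861 in SCC-9, so that it too overlapped between FaDu and SCC-9. Its Detroit 562 level was 1.91-fold that of FaDu and 2.32-fold that of SCC-9.

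CAPZA2, ST7 and LSM8 lie after MET. CAPZA2 stood at 6395, 6202 and 6768 in untreated Detroit 562, at 3211, 2941 and 3020 in FaDu and at 2749, 2565 and 2924 in SCC-9. It was 2.11-fold higher than in FaDu (log2 fold change 1.08 ± 0.09, adjusted p = 8.52e-09, edgeR) and 2.35-fold higher than in SCC-9 (1.23 ± 0.09, adjusted p = 1.36e-09). ST7 stood at 2098, 2244 and 2205 in Detroit 562, at 1028, 880.1 and 945.9 in FaDu and at 922.6, 954.7 and 970.8 in SCC-9. Its level in Detroit 562 was 2.29-fold that of FaDu and 2.30-fold that of SCC-9, while FaDu and SCC-9 overlapped. LSM8, at 1835 to 2059 in Detroit 562, 1249 to 1378 in FaDu and 1102 to 1123 in SCC-9, had the smallest difference from FaDu among the 8, a log2 fold change of 0.58, and differed 1.77-fold from SCC-9.

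Farthest before MET lie FOXP2 and MDFIC. FOXP2 stood at 770.2, 658.9 and 549.5 in untreated Detroit 562, at 19.0, 15.1 and 16.9 in FaDu and at 73.8, 71.5 and 51.1 in SCC-9. It was 38.4-fold higher in Detroit 562 than in FaDu (log2 fold change 5.26 ± 0.33, adjusted p = 2.66e-10, edgeR) and 10.0-fold higher than in SCC-9 (3.33 ± 0.28, adjusted p = 1.01e-08). MDFIC, which lies between FOXP2 and TES, stood at 2043, 1628 and 1646 in Detroit 562, at 946.3, 813.6 and 808.5 in FaDu and at 1142, 1036 and 1261 in SCC-9. Its level in Detroit 562 was 2.07-fold that of FaDu and 1.55-fold that of SCC-9.

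**Figure D2:**
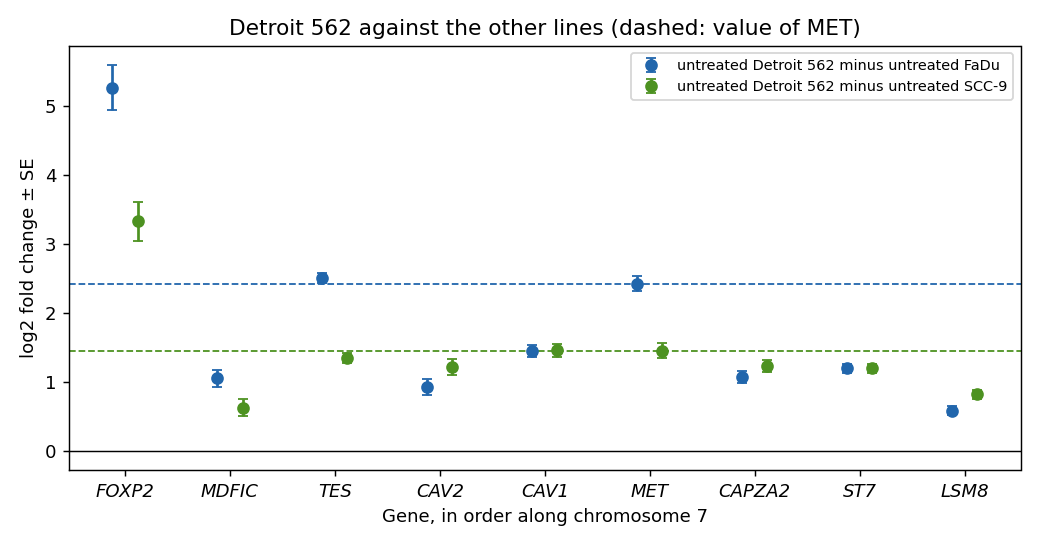
Log2 fold change ± SE (edgeR) of untreated Detroit 562 against untreated FaDu (blue) and SCC-9 (green) for MET and its 8 neighbours in chromosomal order, with the value of MET as a dashed line. All values lie above 0; against FaDu only TES lies near the line of MET, at 2.51 beside 2.42, and FOXP2 lies above it at 5.26.

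Between the lines with less MET, the share of neighbours called higher was near that of all genes. In untreated SCC-9 against FaDu, MET was 1.95-fold higher (log2 fold change 0.96 ± 0.10, adjusted p = 2.86e-07, edgeR), and FOXP2, TES and MDFIC were called higher too, 3 of 8 beside 33.5% of all genes. TES was 2.24-fold higher and FOXP2 3.83-fold higher (1.94 ± 0.35). The call of MDFIC, with a log2 fold change of 0.42, was lost without control library 2 or 3 of FaDu or control library 3 of SCC-9, at 0.39, 0.38 and 0.34. The other 5 were not called: CAV1 and ST7 had log2 fold changes of -0.01 and -0.00, and CAV2, CAPZA2 and LSM8 of -0.28, -0.16 and -0.24.

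The count of a neighbour as a percentage of the MET count in the same library does not depend on library size. TES stood at 35.4 to 37.6% of MET in untreated Detroit 562, 31.4 to 35.7% in FaDu and 37.0 to 43.0% in SCC-9. CAV1 stood at 325 to 405% in Detroit 562 and 343 to 394% in SCC-9, which overlapped, but at 676 to 744% in FaDu. CAPZA2 stood at 20.1 to 20.6%, 46.8 to 55.4% and 22.2 to 26.4% in Detroit 562, FaDu and SCC-9. LSM8 stood at 5.47 to 6.68%, 20.3 to 23.8% and 9.05 to 9.93%. Against FaDu the ratios of 7 of the 8 did not overlap with those of Detroit 562, the exception being TES. This share is no result about the neighbours, since the ratios of 93.5% of all genes did not overlap either.

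A limma test of the change in this log2 ratio found 7 of 8 neighbours to differ from MET between Detroit 562 and FaDu, beside 96.4% of all genes. FOXP2 changed more than MET and MDFIC, CAV2, CAV1, CAPZA2, ST7 and LSM8 less, by log2 values from -0.97 (CAV1) to -1.84 (LSM8), while TES changed by 0.09 ± 0.11 SE relative to MET (adjusted p = 0.466, limma). Against SCC-9, 5 of 8 differed, beside 92.5% of all genes: FOXP2 more, and MDFIC, CAV2, ST7 and LSM8 less. Both counts are no more than the share of all genes, so they are no result about the neighbours. The changes relative to MET of CAV1 (0.00 ± 0.16), TES (-0.11 ± 0.11) and CAPZA2 (-0.22 ± 0.13) did not pass. The calls of CAV2 (adjusted p = 0.0970, limma) and ST7 (0.0613) lay near the threshold, and without control library 1 of Detroit 562 or control library 3 of SCC-9 the number fell to 3. The error of MET itself enters every ratio, so these tests are not independent of one another, and adjustment over genes does not correct for it. In simulated counts they gave many false calls together in some draws, those in which MET deviated by chance. The smallest p of an exact two-sided permutation test of 3 against 3 libraries is 0.1. It was reached by each of the 7 against FaDu and by each neighbour except TES and CAV1 against SCC-9 (adjusted p = 0.123 over 16 exact permutation tests). Neither test can therefore settle single neighbours, least of all those near the threshold, such as CAV2, ST7 and CAPZA2 against SCC-9.

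**Figure D3:**
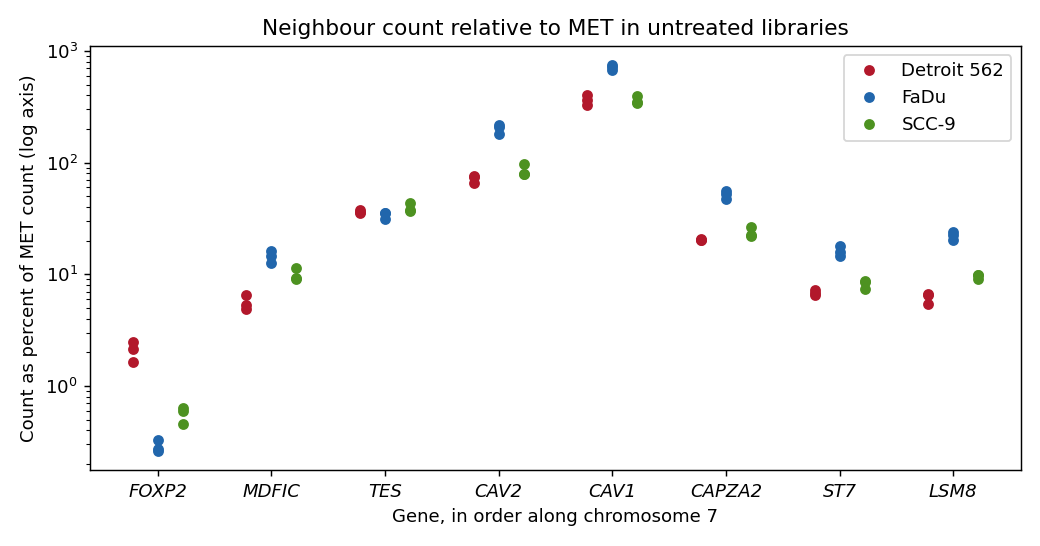
Count of each neighbour as a percentage of the MET count in the same untreated library (log axis), 3 libraries per line. TES lies between 31.4 and 43.0% in all 9 libraries, whereas CAPZA2 lies at 20.1 to 20.6% in Detroit 562, 22.2 to 26.4% in SCC-9 and 46.8 to 55.4% in FaDu.

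The surroundings of MET were then taken by place. Within 5 Mb of the start of MET, 29 genes other than MET are listed and 24 were tested. Their median log2 difference was 1.49 between untreated Detroit 562 and FaDu, with 21 called higher and 1 lower, and 1.05 between Detroit 562 and SCC-9, with 19 called higher and 2 lower. Of all genes tested, 31.2% were called higher and 29.8% lower against FaDu, and 31.4% and 33.9% against SCC-9. Over the 680 tested genes of chromosome 7 beyond 10 Mb the medians were 0.05 and -0.01. Of these 680, 36.8% were called higher and 29.9% lower against FaDu, and 32.9% and 33.1% against SCC-9. The 16 genes within 5 Mb that are not among the 8 neighbours had medians of 1.87 and 0.82, but many of them had low counts. Of these 16, 13 were called higher and 1 lower against FaDu, and 11 higher and 2 lower against SCC-9. In the whole window without MET, genes with a mean normalized count of at least 500 had medians of 1.14 and 0.82. These genes include neighbours from the 8, and the limit of 500 was chosen after seeing the data. No such median was taken for the 16 alone. ING3, a chromatin reader gene 4.28 Mb after MET, had log2 differences of -0.13 and 0.14 and was called in neither.

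In steps of 5 Mb along chromosome 7, high medians were not limited to the surroundings of MET. The step from 80 to 85 Mb, with 7 tested genes, had medians of 1.45 against FaDu and 1.80 against SCC-9, that from 15 to 20 Mb, with 13, had 1.59 and 0.44, and that from 25 to 30 Mb, with 30, had 0.21 and 2.49. The step medians from 85 to 110 Mb lay between 0.53 and 0.86 against FaDu and between 0.52 and 0.84 against SCC-9. From 110 to 125 Mb, where MET lies, they were between 1.25 and 1.54 against FaDu and between 0.80 and 1.23 against SCC-9. From 125 Mb to the end they lay between -1.15 and -0.16 against FaDu and between -0.71 and 0.07 against SCC-9. The limits of these stretches were chosen after the values were seen. Among 297 fixed bins of 10 Mb with at least 10 tested genes over the genome, the bin of MET, from 110 to 120 Mb, had the median at rank 5 against FaDu and rank 7 against SCC-9. Nearer the end of the raised stretch, NDUFA5 and WASL, 6.89 and 7.08 Mb after MET, had log2 differences of -0.07 and -0.11 against FaDu and -0.15 and -0.17 against SCC-9. The paper states, from public copy number data, that the MET gene is amplified in Detroit 562. No DNA measurement of these cells was analysed here, so the part of copy number in these differences was not tested.

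**Figure D4:**
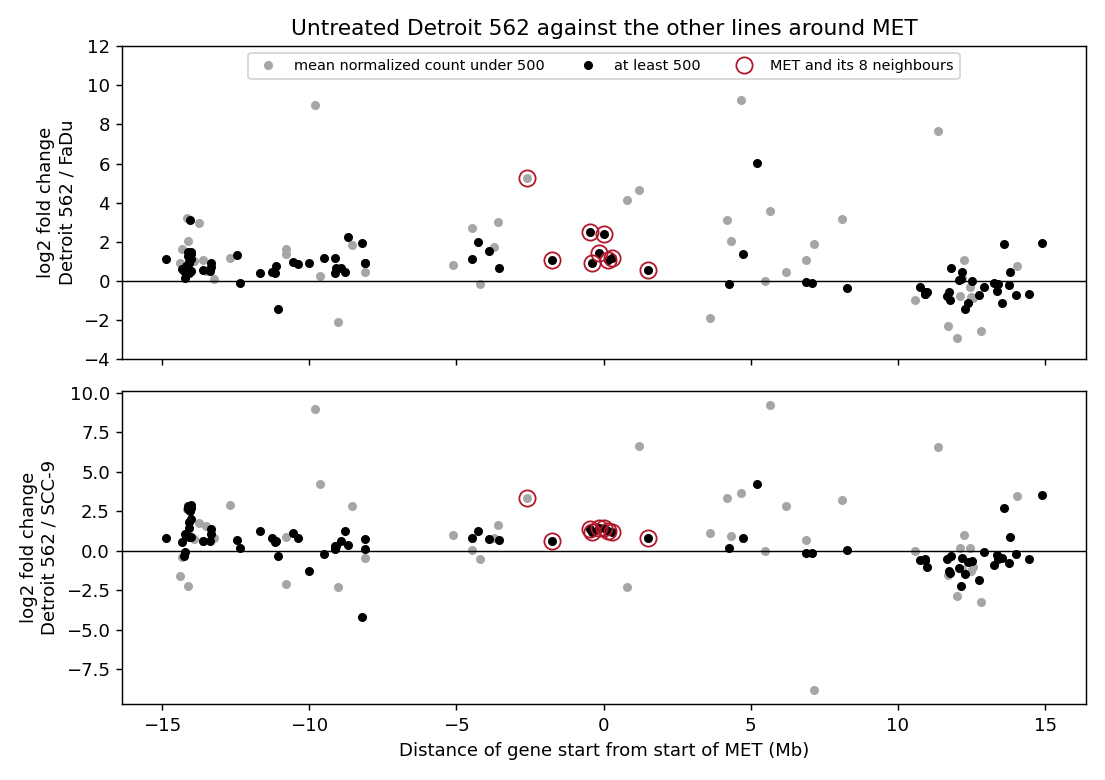
Log2 fold change of untreated Detroit 562 against FaDu (top) and SCC-9 (bottom) for the tested genes within 15 Mb of MET, by distance of the gene start from that of MET. Black points have a mean normalized count of at least 500, grey points less, and red rings mark MET and its 8 neighbours; most points lie above 0 up to about 5 Mb after MET, and most black points beyond 10 Mb after it lie below 0.

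Across the 50 tested genes within 10 Mb, the pattern most like that of MET was looked for as the distance between a gene and MET in the plane of the 2 log2 differences of Detroit 562, which share the Detroit 562 libraries. TES was nearest at 0.14, followed by IFRD1 at 0.48, GPR85 at 0.64, CPED1 at 0.64 and C7orf60 at 0.92. Over all tested genes only 3 lay nearer to MET than TES did, whereas 356 lay nearer than CAV1, 895 nearer than CAPZA2 and 9605 nearer than FOXP2.

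Genes that are related to the neighbours by function or family but lie elsewhere gave no common direction. Of all genes tested, 31.2% were called higher and 29.8% lower in untreated Detroit 562 than in FaDu. Against SCC-9 these shares were 31.4% and 33.9%. Of 9 other caveola genes, 3 were called higher and 3 lower in untreated Detroit 562 than in FaDu, and 3 higher and 4 lower than in SCC-9. CAVIN1, the coat protein gene that caveolae require, had log2 differences of -0.36 and -0.90, and was called only in the second, against the direction of CAV1. Of 3 tested capping protein genes, 1 was called higher and 1 lower in Detroit 562 than in FaDu, and 0 higher and 1 lower than in SCC-9. CAPZA1, the paralogue of CAPZA2, had log2 differences of -1.30 and -0.32, the second not called, and CAPG, a capping protein of the gelsolin family, of 0.98 and -0.50. Of 8 zyxin and testin partners, 3 were called higher and 3 lower than in FaDu and 1 each than in SCC-9. Of the 7 other listed genes of the LSM family, 2 were called higher and 2 lower than in FaDu and 3 higher than in SCC-9, led by LSM1 at 1.33 and 0.97. FOXP1 and FOXP4 were higher than in FaDu by 0.96 and 1.14 and FOXP3, at no more than 19.1 normalized counts, lower. ST7L, the paralogue of ST7, was lower than in FaDu by a log2 of -0.98 and MDFI, that of MDFIC, higher by 1.04.

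HGF moved the 2 genes farthest before MET in Detroit 562. FOXP2 stood at 328.4, 391.5 and 179.3 normalized counts in the HGF libraries of Detroit 562 beside 770.2, 658.9 and 549.5 in the controls, without overlap (log2 fold change -1.14 ± 0.25, adjusted p = 0.00488, edgeR). MDFIC stood at 1346, 1313 and 1227 beside 2043, 1628 and 1646 (-0.45 ± 0.12, adjusted p = 0.0110, edgeR), and its call was lost without control library 1, at -0.34. These are 2 of 8 neighbours, beside 11.7% of all genes called lower. Both were lower in all 3 same-numbered pairs, but so were TES, CAV1 and LSM8, and MET was higher in all 3. The other 6 and MET were not called, with TES at -0.13 ± 0.07, CAV1 at -0.14 ± 0.09 and MET at 0.15 ± 0.10. With the replicate block, the adjusted p values from edgeR of TES, MET and CAV1 were 0.0202, 0.0273 and 0.0553, at log2 changes under the size that a call needed.

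In FaDu and SCC-9, edgeR called 0 of 8 neighbours with HGF, beside 0.0258% and 0% of all genes, and 0 of 8 had an unadjusted p under 0.05. DESeq2 called 0 in both. With the replicate block, 867 of 15475 genes were called in FaDu and 305 in SCC-9, and still 0 of the 8 neighbours in either. In that fit MET rose with HGF in FaDu too, by a log2 of 0.18 (adjusted p = 0.0384, edgeR), under the size that a call needed. The response in Detroit 562 minus that in FaDu or SCC-9 passed for 0 of 8, beside 0.239% and 0.924% of all genes, with unadjusted p under 0.05 for 1 (FOXP2) and 2 (FOXP2 and MDFIC) and 0 by DESeq2. When same-numbered libraries of a line were paired by a replicate block, FOXP2 passed in both (-1.25, adjusted p = 0.0434, and -0.98, adjusted p = 0.0132, edgeR) and MDFIC against SCC-9 (-0.38, adjusted p = 0.0305, edgeR). In that fit 19.1% and 26.9% of all genes passed, so that 1 and 2 of 8 neighbours are no more than the background. Under HGF, 8 of 8 neighbours were called higher in Detroit 562 than in FaDu, beside 31% of all genes, and 7 of 8 higher than in SCC-9, beside 31.7%, with MDFIC at a log2 fold change of 0.25 (adjusted p = 0.0628, edgeR).

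**Figure D5:**
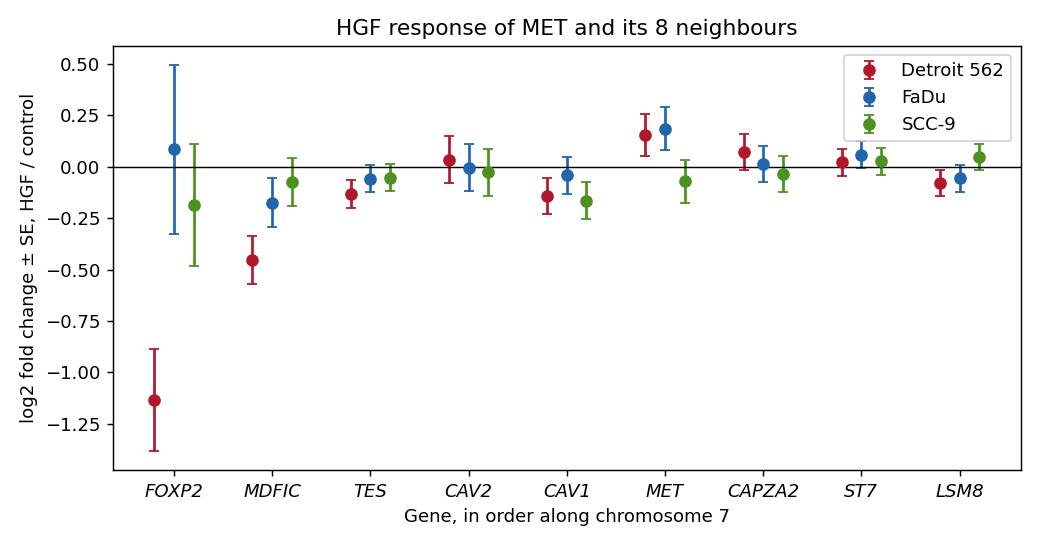
Log2 fold change ± SE (edgeR) of HGF-treated against control libraries in each line for MET and its 8 neighbours. FOXP2 at -1.14 and MDFIC at -0.45 in Detroit 562 are the values called; the others lie between -0.19 and 0.19.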

How the data were processed

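The authors demultiplexed reads with bcl2fastq 2.20.0.422, trimmed them with Cutadapt 1.16, aligned them with STAR 2.5.2b to GRCh38.p12 with GENCODE 28 and counted them with bedtools. The deposited values are raw counts per gene, whole numbers of reads on the strand of a gene over its whole extent, and all 19901 rows are protein-coding. The present fits used R 4.3.3, with edgeR 4.0.16 (TMM, filterByExpr on the 6 groups, quasi-likelihood test, Benjamini-Hochberg over 15475 genes), limma 3.58.1 for ratios to MET (log2 CPM with a prior count of 2) and DESeq2 1.42.0 as an alternative. A normalized count is a count divided by the library's relative TMM-scaled size. A call needed an adjusted p below 0.1 together with a log2 difference of 0.4 or more in size, and differences of responses at the adjusted p alone.

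The members and lists were chosen with earlier results of these data known. Named genes were MET and its 8 neighbours, tested genes within 5 Mb by place, the 5 within 10 Mb nearest to MET in pattern, and members of the lists; NDUFA5 and WASL were chosen after their values were seen. Symbols of the cavin genes were matched by identifier. The fits were tested on simulated data. The edgeR test recovered the changed genes; the ratio test gave many false calls in some draws, always together, because MET enters every ratio. A first plan to judge the ratio test by its average over draws was dropped, since an average hides this. Same-numbered control and HGF libraries of a line correlated in their deviations at 0.161 to 0.563 across genes, so the numbers pair libraries within a line. No 2 libraries of a group agreed within counting noise. Counting intervals are not given, since the spread between libraries exceeds them.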

Additional observations from a re-analysis of the deposited data

Results flagged for a closer look

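When same-numbered libraries of a line were paired by a replicate block, the HGF response differed between lines for 4 values. FOXP2 responded lower in Detroit 562 than in FaDu by a log2 of -1.25 and than in SCC-9 by -0.98, and MDFIC lower than in SCC-9 by -0.38. MET responded higher in Detroit 562 than in SCC-9 by 0.22 (adjusted p = 0.0461, edgeR). None of the 4 passed without the block, where the adjusted p values from edgeR were 0.366, 0.269, 0.293 and 0.481. With the block 2956 of 15475 genes (19.1%) passed for Detroit 562 minus FaDu and 4170 (26.9%) for Detroit 562 minus SCC-9, so these passes do not set the neighbours apart.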

How the results depend on the processing

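Of 3042 alternative values, none counted as reversed, which for a single gene needed a change of sign and a call in either fit. Values that were not called did change sign. CAV1 between untreated SCC-9 and FaDu, for example, lay between -0.09 and 0.06 over the alternatives. The counts of neighbours called between untreated Detroit 562 and FaDu or SCC-9 were 8 in each run with a library left out. Without a minimum fold change 5 neighbours were called between SCC-9 and FaDu, 3 higher and 2 lower; the 2 gained, CAV2 and LSM8, run against MET. At an adjusted p below 0.05 together with a log2 difference of 1 or more, 6 neighbours were called between untreated Detroit 562 and FaDu and 6 between it and SCC-9. At that threshold 5 were called between the HGF-treated Detroit 562 and FaDu and 1 with HGF in Detroit 562. The shares of all genes called without a minimum fold change or at the stricter threshold are not given here. These counts therefore do not set the neighbours apart from other genes. At the main threshold the count with HGF in Detroit 562 was 2, and it lay between 1 and 2 with a library left out. With the replicate block within each line, 1 neighbour passed for the response in Detroit 562 minus FaDu and 2 for that minus SCC-9, where 19.1% and 26.9% of all genes passed; the block changed no other call of a neighbour. A replicate block shared by the lines, whose controls of the same number correlated at -0.107 to 0.326, changed no call in 68 values. The number of neighbours that differed from MET against SCC-9 lay between 3 and 6 with a library left out, and CAPZA2 passed, at -0.22, with untreated libraries alone; the cause was not tested. The median within 5 Mb was 1.32, 1.20 and 1.15 against FaDu within 1, 2 and 10 Mb, and 1.22, 1.21 and 0.81 against SCC-9, where it was 0.89 to 1.09 with a library left out, lowest without control library 1 of Detroit 562. Over genes with a mean normalized count of at least 500 it was 1.14 and 0.82. The ratio test is limited by the error of MET in 3 libraries a group, which depth does not remove. FOXP2 in FaDu rests on 14 to 22 reads per library.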
